A study of Mus musculus with 16 samples.

Results

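The urokinase and tissue plasminogen activators, the urokinase receptor, the tissue inhibitors of metalloproteinases and a set of membrane-anchored proteases were followed in mouse lung tumour cells edited with a CRISPR guide against eIF4A2, an RNA helicase of the mRNA translation machinery. The 9 genes (*Plau*, *Plat*, *Plaur*, *Timp1*, *Timp2*, *Timp3*, *Mmp14*, *Mmp15* and *Adam10*) were chosen by symbol, as proteases and protease inhibitors of the kind released by senescent cells, out of 20622 genes in the total RNA tables. Ribosome-protected fragments (RPFs), the stretches of mRNA covered by translating ribosomes, and cytoplasmic total RNA from the same lysates were sequenced in KM_NTC and KM_4A2cr cells. KM cells carry Rosa26 LSL-MYC/LSL-MYC alleles and came from the lung tumours of a single male mouse, so both cell lines share these alleles and that origin. KM_NTC cells received a non-targeting CRISPR guide, and KM_4A2cr cells are a pool of clones that received a guide against *Eif4a2* and were selected for absence of the protein on western blots. Cells were untreated and were plated and harvested on different days for each of the 4 replicates, giving 4 libraries per cell line and kind and 16 libraries in all. Replicates are therefore repeat cultures of 1 pair of cell lines and carry no information on other mice, and an effect of the choice of clones cannot be told apart from that of the guide.

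Plasminogen activators cut plasminogen into plasmin, a broad protease of fibrin and matrix, and the urokinase receptor holds urokinase at the cell surface. Tissue inhibitors of metalloproteinases (TIMPs) block the active site of matrix metalloproteinases and of some ADAM proteases, and TIMP2 also bridges the membrane protease MMP14 to the precursor of gelatinase A. ADAM10 releases the outer parts of membrane proteins such as Notch receptors and adhesion molecules. Many of these proteins belong to the secretome of senescent cells and are made by lung tumour epithelium and its stroma alike.

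Libraries held between 4512403 and 9621848 RPF counts and between 5350920 and 9312624 total RNA counts. The targeted *Eif4a2* had RPF levels of 97.7, 122, 99.8 and 389 CPM (counts scaled to a common library size) in KM_NTC replicates 1 to 4 and of 51.0, 88.4, 74.8 and 346 CPM in KM_4A2cr. It was lower in KM_4A2cr in 4 of 4 pairs, with a log2 change in RPFs of -0.49 (95% interval -0.83 to -0.16, adjusted p = 0.0941) and in total RNA of -0.18 (adjusted p = 0.504), so its mRNA and footprints were still counted in the cells selected for loss of the protein, and these data alone do not show that loss. The 8 epithelial markers summed to between 9284 and 15060 CPM of the RPF libraries and were higher in KM_4A2cr in each pair. Of the 8 alveolar type II markers, *Sftpc* and *Sftpb* had 0 counts in all 16 libraries, whereas *Abca3* had 6668 RPF counts over the 8 RPF libraries. *Abca3* was the exception, as *Sftpd* had 41 RPF counts, *Slc34a2* 4, and *Sftpa1*, *Lamp3* and *Nkx2-1* 0. Of the 8 fibroblast markers *Col3a1*, *Dcn* and *Lum* had 0, and *Pdgfra* was the highest with 432 RPF counts. Replicate 4 stood apart in both cell lines, where the macrophage and leukocyte markers summed to 820 RPF CPM in KM_NTC and 714 in KM_4A2cr, against 121 to 208 in the other 6 RPF libraries. *Cd68* (11305 RPF counts over 8 libraries) and *Cd14* (3452) made up nearly all of these sums, while *Ptprc* had 77, *Csf1r* 47, *Adgre1* 2 and *Itgam* and *Fcer1g* 0. The part of this difference in the results was not tested, and values without replicate 4 are given beside the main ones. That fit called 33.4% of all genes in RPFs and 29.8% in total RNA.

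On the TPM scale, which allows for transcript length as well as library size, *Plau* was the most abundant of the 9 mRNAs, with 1339 ± 392 TPM (SD, n = 8 total RNA libraries), rank 121 among 17652 genes. *Plaur* followed with 586 ± 302 TPM. *Timp2* had 314 ± 103, *Timp1* 247 ± 117, *Mmp14* 238 ± 50.6, *Adam10* 233 ± 76.7 and *Plat* 183 ± 87.0 TPM. These middle levels ran into each other: *Timp1* lay above *Mmp14* in 4 of 8 libraries, *Mmp14* above *Adam10* in 3 of 8, and *Timp2* above *Timp1* and *Adam10* above *Plat* in 6 of 8 each. *Mmp15* (3.70 ± 1.48 TPM) and *Timp3* (0.750 ± 0.893 TPM) were scarce, and the steps from *Plau* to *Plaur*, *Plaur* to *Timp2*, *Plat* to *Mmp15* and *Mmp15* to *Timp3* had the same order in 8 of 8 libraries. 

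**Figure D1:**
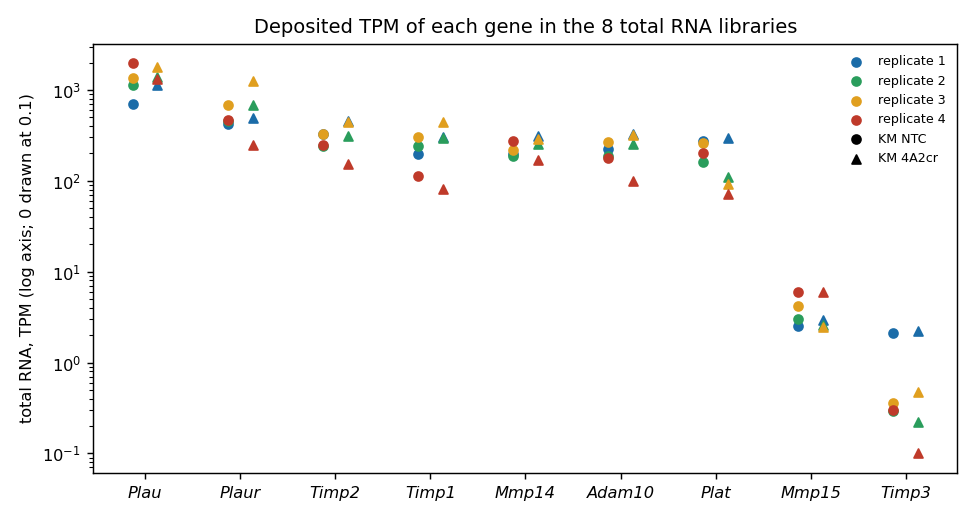
Deposited TPM of each gene (log axis) in the 8 total RNA libraries, with circles for KM_NTC, triangles for KM_4A2cr and a colour per replicate. *Plau* sits at the top with 691 to 1954 TPM, 6 genes share a middle band, and *Mmp15* and *Timp3* lie far below.

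Promoter sequences were available for 7 of the 9 genes in the RefSeq table of GRCm38.p6, a different build from that of the deposited tables. They are shown for *Adam10*, the only one of the 9 genes past the threshold, for *Timp2*, whose levels followed it most closely, and for *Plaur*, which held a motif that neither of them had. Each run holds the 130 bases before the annotated start, with capitals on 3 short motifs searched on both strands: CACGTG (E-box), TGANTCA (AP-1) and GGGCGG (GC box). Neighbouring GC boxes overlap or adjoin in *Adam10* and *Plaur*.
Adam10, chr9:70678852-70678981, plus strand: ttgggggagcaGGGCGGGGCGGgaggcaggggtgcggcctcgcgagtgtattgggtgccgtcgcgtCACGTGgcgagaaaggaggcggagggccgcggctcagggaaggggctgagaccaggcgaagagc
Timp2, chr11:118355412-118355541, minus strand: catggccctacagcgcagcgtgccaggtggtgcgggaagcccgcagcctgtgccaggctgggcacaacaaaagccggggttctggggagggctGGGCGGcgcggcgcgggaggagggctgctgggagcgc
Plaur, chr7:24462353-24462482, plus strand: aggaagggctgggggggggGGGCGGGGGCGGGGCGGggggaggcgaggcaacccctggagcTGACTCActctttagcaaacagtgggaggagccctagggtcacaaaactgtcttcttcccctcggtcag
*Adam10* held CACGTG 64 bases before its start, a motif found in 3.88% of the 32851 windows of the same length. *Plaur* held TGACTCA 69 bases before its start, and TGANTCA was found in 3.70% of windows. GGGCGG, present in 27.3% of windows, occurred in all 7 available windows, including those of *Timp1*, *Timp3*, *Mmp14* and *Mmp15*. These matches describe letters, and no binding was measured.

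The plasminogen activators differed in direction between the cell lines, with *Plau* and its receptor mostly higher in KM_4A2cr and *Plat* mostly lower, and none of them passed the threshold in RPFs, total RNA or translational efficiency. Of all genes tested, 10.3% of 10291 in RPFs, 6.13% of 10880 in total RNA and 2.91% of 9989 in translational efficiency (the change in RPFs beyond that in total RNA, with 1.87% higher and 1.04% lower) were past an adjusted p of 0.1 by edgeR's quasi-likelihood test. Each library came from a lysate of a whole culture, so fewer cells with an mRNA and less of it per cell cannot be told apart. Levels are also relative to all other mRNAs of a library.

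*Plau* (ENSMUSG00000021822.4) encodes urokinase. Its RPF levels in KM_NTC replicates 1 to 4 were 2271, 3449, 4870 and 8932 CPM, and in KM_4A2cr 3338, 3981, 5661 and 7739 CPM. Replicates differed more than the cell lines did, replicate 4 was the highest in both, and the cell lines overlapped. The fitted log2 fold change of KM_4A2cr against KM_NTC was 0.19 in RPFs (95% interval -0.15 to 0.54, adjusted p = 0.481) and 0.37 in total RNA (-0.07 to 0.82, adjusted p = 0.367). Total RNA levels were 849, 1184, 1688 and 2949 CPM against 1440, 1533, 2384 and 2669 CPM, in the same order of replicates. KM_4A2cr was the higher in pairs 1 to 3 and the lower in pair 4, with log2 ratios in RPFs of 0.56, 0.21, 0.22 and -0.21. Translational efficiency lay below that of KM_NTC in 4 of 4 pairs, with log2 ratios from -0.28 to -0.06, without passing the threshold (log2 fold change -0.18, adjusted p = 0.404). Without replicate 4, *Plau* was higher in KM_4A2cr in RPFs (0.33, adjusted p = 0.0667) and total RNA (0.54, adjusted p = 0.000364). Leaving out replicate 1, 2 or 3 instead gave an adjusted p of 0.847, 0.760 and 0.707 in RPFs by the same test. In total RNA these were 0.713, 0.742 and 0.780.

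*Plaur* (ENSMUSG00000046223.11), the urokinase receptor with an AP-1 motif in its promoter window, had RPF levels of 775, 924, 1940 and 1722 CPM in KM_NTC and of 967, 1503, 2913 and 1298 CPM in KM_4A2cr. The highest library was KM_4A2cr replicate 3, and KM_4A2cr replicate 4 fell below its KM_NTC partner. For this receptor it was 0.30 in RPFs (-0.12 to 0.72, adjusted p = 0.364) and 0.37 in total RNA (-0.12 to 0.87, adjusted p = 0.428). Its total RNA was at 315, 294, 516 and 437 CPM in KM_NTC and at 387, 469, 1033 and 307 CPM in KM_4A2cr. There the log2 ratios of pairs 1 to 4 were 0.30, 0.67, 1.00 and -0.51. Without replicate 4 both rose, by 0.54 in RPFs (adjusted p = 0.00458) and 0.65 in total RNA (adjusted p = 0.000177). Translational efficiency differed by -0.07 (-0.28 to 0.14, adjusted p = 0.813).

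*Plat* (ENSMUSG00000031538.7), tissue plasminogen activator, had RPF levels of 908, 488, 934 and 1127 CPM in KM_NTC and of 1056, 392, 414 and 469 CPM in KM_4A2cr. KM_4A2cr replicates 2, 3 and 4 lay below every KM_NTC library, and replicate 1 lay within the KM_NTC range. Total RNA had 363, 180, 348 and 331 CPM against 414, 134, 135 and 159 CPM, with KM_4A2cr replicate 1 above and the other KM_4A2cr replicates below every KM_NTC library. The fitted difference on the log2 scale was -0.63 in RPFs (-1.18 to -0.09, adjusted p = 0.155) and -0.66 in total RNA (-1.16 to -0.16, adjusted p = 0.150), the largest in size among the 8 tested of the 9 genes. It passed the threshold in both kinds of library with DESeq2 (adjusted p = 0.0706 and 0.0557), with scaling by library size alone (0.0397 and 0.0820) and without the filter on low counts (0.0844 and 0.00151). Total RNA also passed it without replicate 1 (-0.95, adjusted p = 0.0772) and without replicate 4 (-0.53, adjusted p = 0.0270), but not without replicate 2 (-0.75, adjusted p = 0.350) or replicate 3 (-0.43, adjusted p = 0.641). In RPFs *Plat* did not pass when any 1 replicate was left out, and its log2 fold change came to -0.42 both without replicate 3 (adjusted p = 0.577) and without replicate 4 (adjusted p = 0.133). Translational efficiency differed by 0.03 (-0.17 to 0.23, adjusted p = 0.920).

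**Figure D2:**
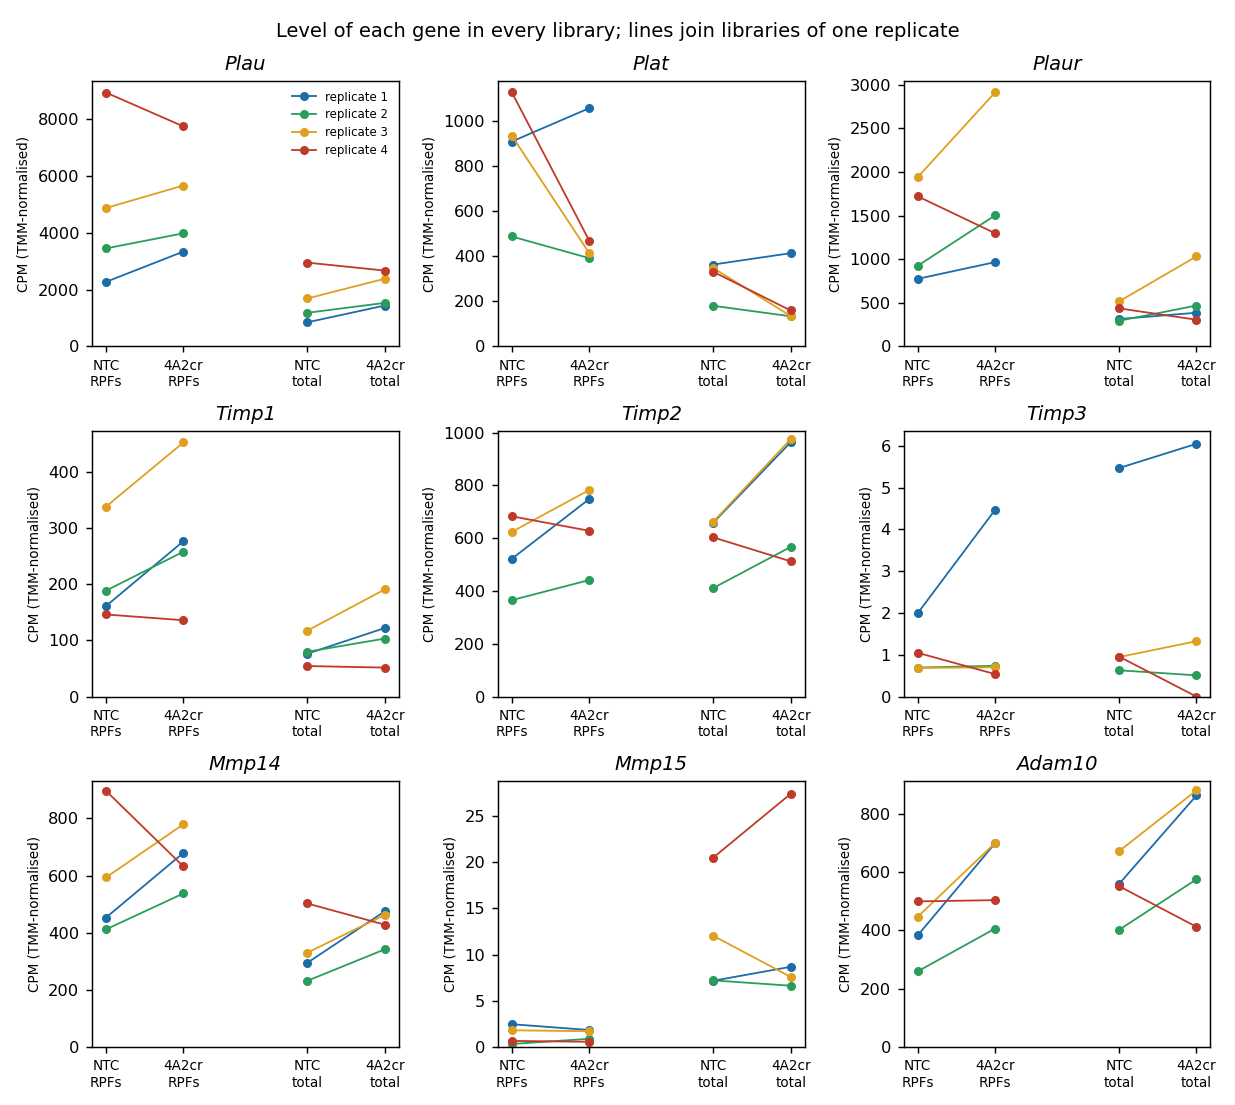
TMM-normalised CPM of each gene in all 16 libraries, on linear axes that start at 0, with RPFs on the left and total RNA on the right of each panel and a line joining the KM_NTC and KM_4A2cr libraries of a replicate. The red lines of replicate 4 fall in *Plau*, *Plaur*, *Timp1*, *Timp2* and *Mmp14* where the lines of the other replicates rise, and *Plat* falls in replicates 2 to 4.

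The abundant inhibitors *Timp1* and *Timp2* had higher mean levels in KM_4A2cr in both kinds of library, but with all 4 pairs neither passed the threshold. *Timp1* (ENSMUSG00000001131.12) encodes a secreted inhibitor of most matrix metalloproteinases and of ADAM10. Its RPF levels were 161, 189, 338 and 146 CPM in KM_NTC and 277, 258, 453 and 136 CPM in KM_4A2cr. KM_4A2cr was the higher in pairs 1 to 3, and in replicate 4 both cell lines had their lowest level and differed little. The log2 fold change was 0.39 in RPFs (0.04 to 0.74, adjusted p = 0.173) and 0.43 in total RNA (0.10 to 0.76, adjusted p = 0.156), with unadjusted p of 0.0328 and 0.0155 from the same edgeR fits. Total RNA of *Timp1* was at 76.4, 79.9, 118 and 54.4 CPM in KM_NTC and 122, 103, 191 and 51.6 CPM in KM_4A2cr, with replicate 4 again the lowest and nearly level. Without replicate 4 these were 0.55 (adjusted p = 0.00255) and 0.57 (adjusted p = 0.000256).

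*Timp2* (ENSMUSG00000017466.10) encodes the inhibitor that also takes part in MMP14-dependent activation of gelatinase A. Its RPF levels were 522, 365, 624 and 683 CPM in KM_NTC and 748, 441, 782 and 628 CPM in KM_4A2cr, and those of total RNA 658, 411, 662 and 603 against 963, 567, 975 and 512 CPM. Replicate 2 was the lowest of the RPF libraries in both cell lines, and the cell lines overlapped. The log2 fold change was 0.25 in RPFs (-0.06 to 0.56, adjusted p = 0.312) and 0.34 in total RNA (-0.06 to 0.73, adjusted p = 0.354). Without replicate 4 it was 0.37 in RPFs (adjusted p = 0.0175) and 0.52 in total RNA (adjusted p = 0.000237). Translational efficiency differed by -0.03 for *Timp1* (-0.24 to 0.17) and by -0.09 for *Timp2* (-0.28 to 0.11).

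*Timp3*, the inhibitor that binds to the matrix and also blocks ADAM10 and ADAM17, was removed by the filter on low counts. It had 39 RPF counts over the 4 KM_NTC libraries and 50 over the KM_4A2cr libraries, most of them from replicate 1, which had 1.99 and 4.47 CPM against 0.54 to 1.05 in the other 6 RPF libraries. With the filter applied, a difference between the cell lines was not tested for *Timp3*.

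Among the membrane proteases, *Adam10* was the only gene that rose in KM_4A2cr past the threshold, in RPFs. *Adam10* (ENSMUSG00000054693.15), with the E-box in its promoter window, had RPF levels of 383, 259, 447 and 500 CPM in KM_NTC and of 699, 406, 700 and 504 CPM in KM_4A2cr. KM_4A2cr replicates 1, 3 and 4 lay above every KM_NTC library, replicate 4 by little, and replicate 2 was the lowest in both cell lines, so the cell lines overlapped. The log2 fold change was 0.55 (0.19 to 0.90, adjusted p = 0.0836), a 1.46-fold rise, with log2 ratios of 0.87, 0.65, 0.65 and 0.01 in pairs 1 to 4. This call was lost without replicate 1 (adjusted p = 0.274), replicate 2 (0.374) or replicate 3 (0.364), and with upper-quartile scaling (0.105). It was also lost without replicate number in the fit (0.998) and at a threshold of 0.05. The call held in 6 of 12 settings, the main one included, while the log2 fold change stayed between 0.42 and 0.72 over all alternatives.

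*Adam10* total RNA stood at 0.28 (-0.14 to 0.71, adjusted p = 0.484), with levels of 560, 402, 672 and 552 CPM in KM_NTC and 864, 576, 882 and 412 CPM in KM_4A2cr. Pair 4 was the only one in which the KM_4A2cr library was the lower. Footprints exceeded what total RNA gave in every pair, by log2 ratios of 0.24, 0.13, 0.26 and 0.43, and *Adam10* was the only one of the 8 tested genes with a translational efficiency above that of KM_NTC in 4 of 4 pairs. The fitted difference in translational efficiency was 0.26 (0.07 to 0.46, unadjusted p = 0.00894, adjusted p = 0.160 by edgeR) and did not pass the threshold. Without replicate 4, *Adam10* rose by 0.72 in RPFs (adjusted p = 0.000354) and 0.50 in total RNA (adjusted p = 0.000348), and its translational efficiency differed by 0.22 (adjusted p = 0.126).

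*Mmp14* (ENSMUSG00000000957.12) encodes the membrane-type metalloproteinase that cuts collagen and activates gelatinase A. Its RPF levels were 452, 411, 593 and 897 CPM in KM_NTC and 680, 537, 780 and 632 CPM in KM_4A2cr. The highest library of all was KM_NTC replicate 4, which no KM_4A2cr library reached, whereas in pairs 1 to 3 KM_4A2cr was the higher. The log2 fold change was 0.22 in RPFs (-0.19 to 0.63, adjusted p = 0.508) and 0.38 in total RNA (-0.004 to 0.76, adjusted p = 0.278). Total RNA of *Mmp14* was at 294, 231, 330 and 502 CPM against 475, 341, 462 and 428 CPM, with pair 4 again the only one in which KM_4A2cr was the lower. Translational efficiency was below that of KM_NTC in 4 of 4 pairs, with log2 ratios from -0.27 to -0.09, as for *Plau*, and had a fitted value of -0.16 (-0.35 to 0.03, adjusted p = 0.445). Without replicate 4, *Mmp14* rose by 0.46 in RPFs (adjusted p = 0.00578) and 0.57 in total RNA (adjusted p = 9.5e-05).

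*Mmp15* (ENSMUSG00000031790.9), a second membrane-type metalloproteinase, had few footprints, with 46 RPF counts over the KM_NTC libraries and 36 over the KM_4A2cr libraries, against 327 and 264 total RNA counts. RPF levels were 2.44, 0.30, 1.78 and 0.63 CPM in KM_NTC and 1.81, 0.86, 1.68 and 0.54 CPM in KM_4A2cr. The interval of its RPF log2 fold change, -0.92 to 0.91, was too wide to place it with the rising or the falling genes. In total RNA, replicate 4 was the highest in both cell lines, with 20.5 and 27.4 CPM against 6.62 to 12.0 in the other libraries.

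**Figure D3:**
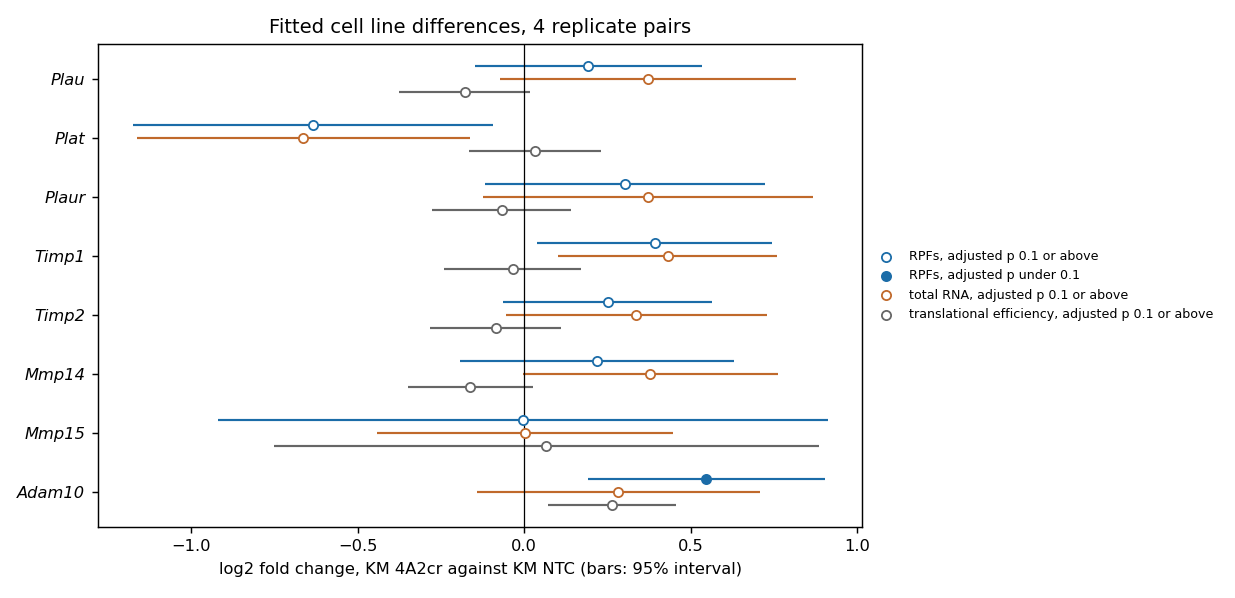
Fitted log2 fold changes of the 8 tested genes between KM_4A2cr and KM_NTC with 95% intervals, in RPFs, total RNA and translational efficiency. The filled point is *Adam10* in RPFs at 0.55, and *Plat* lies at -0.63 and -0.66 while its translational efficiency is near 0.

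Of the 8 genes tested, 1 was past the threshold in RPFs, 0 in total RNA and 0 in translational efficiency, and 3, 2 and 1 had an unadjusted p under 0.05 by edgeR. The RPF share is near the 6.6% of all genes that rose, so it is no result about these genes as a set. Their median log2 fold change was 0.23 in RPFs, 0.35 in total RNA and -0.05 in translational efficiency, beside medians over all genes of -0.01, 0.01 and -0.02. The share of log2 fold changes above 0 was 6 of 8, 7 of 8 and 3 of 8, beside 48.9%, 51.6% and 47.1% of all genes. The genes were chosen with earlier results of these data known and come from the same 4 pairs. These medians and shares therefore describe them and were not tested. In RPFs, 7, 7 and 6 of the 8 genes were higher in KM_4A2cr in pairs 1, 2 and 3, with medians of 0.54, 0.42 and 0.36, and 1 of 8 was higher in pair 4, with a median of -0.18. Total RNA had 8, 6, 6 and 1 of 8, with a median of -0.23 in pair 4. Over all genes tested the medians of the pairs lay between -0.06 and 0.02 in both kinds of library. The share of all genes above 0 in a pair lay between 45.1% and 52.8%.

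**Figure D4:**
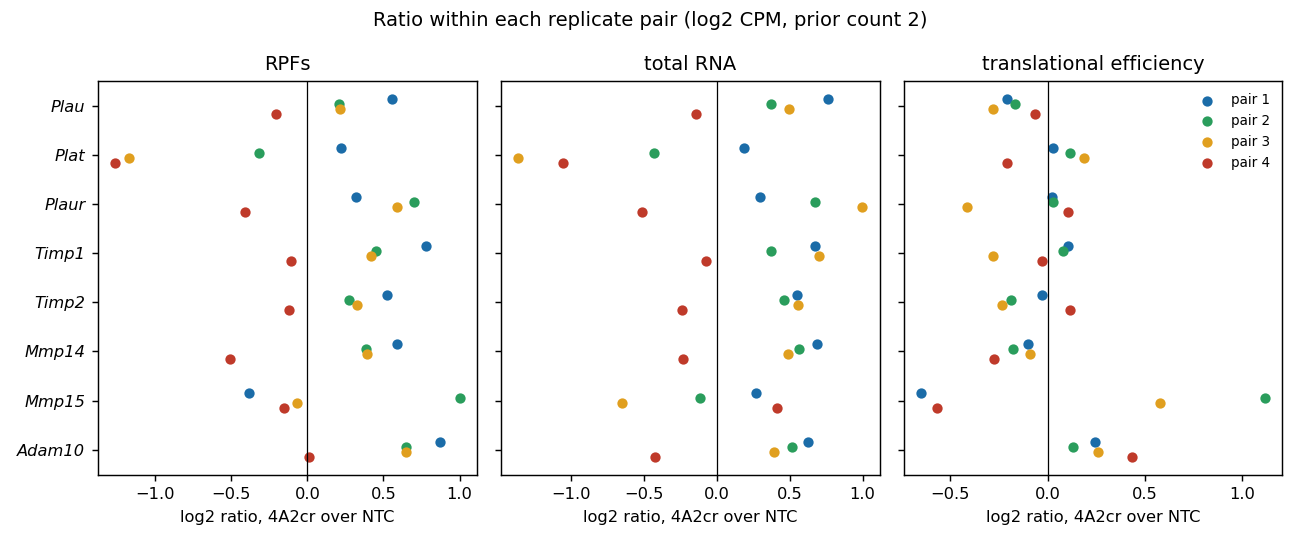
Log2 ratio of KM_4A2cr over KM_NTC within each of the 4 replicate pairs for the 8 tested genes, from log2 CPM with a prior count of 2. In RPFs and total RNA the red points of pair 4 lie left of 0 except for *Adam10* RPFs at 0.01 and *Mmp15* total RNA at 0.41, and in translational efficiency *Adam10* lies right of 0 in each pair.

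Without replicate 4, the fit called 6 of the 8 genes higher in RPFs and 0 lower, and in total RNA 6 higher and 1 lower, the latter being *Plat*. The same fit called 33.4% of 10376 genes in RPFs, of which 19.1% of all tested were higher, and 29.8% of 10941 genes in total RNA. In translational efficiency it called 0 of the 8 genes and 6.68% of all genes. Fits without replicate 1, 2 or 3 instead called 0 of the tested genes in RPFs. In total RNA they called *Plat* lower without replicate 1, and 0 genes without replicate 2 or 3.

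Across the 8 RPF libraries, *Timp2* and *Adam10* had the closest pattern of any pair of these genes, with a Pearson correlation of log2 CPM of 0.94, and of 0.96 across the 8 total RNA libraries. *Timp2* and *Mmp14* reached 0.85 and 0.63, and *Plaur* and *Timp1* 0.60 and 0.77. The highest RPF correlation of *Plat* with any other of the genes was 0.40, with *Mmp15*. These values describe libraries that share cell lines and, as inferred from the replicate numbers, harvest days. Over all tested genes, the RPF pattern nearest to that of *Plau* was that of *Abcc1* (0.995) and *Tspan9* (0.992), and nearest to *Plat* were *Mboat2* (0.980) and *Adgrl2* (0.963). *Cntnap1* (0.972) and *Ccm2* (0.958) were nearest to *Plaur*, *Slc7a5* (0.967) and *Cyb5r1* (0.962) to *Timp1*, *Il6st* (0.988) and *Lrp6* (0.983) to *Timp2*, and *Gpx8* (0.998) and *Il17ra* (0.976) to *Mmp14*. For *Mmp15* they were *Abhd14a* (0.962) and *Tmem268* (0.954), and for *Adam10*, *Atp2b1* (0.987) and *Zfyve27* (0.986).

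The wider network of 88 protease, inhibitor and trafficking genes in 6 lists had 43 genes tested in RPFs, of which 10 rose and 1 fell in KM_4A2cr, with a median log2 fold change of 0.34, beside 6.6% and 3.72% of all genes. In total RNA 6 rose and 1 fell of 44, with a median of 0.23, beside 4.35% and 1.78% of all genes, and in translational efficiency 0 of 41 passed, with a median of 0.03. Most of the rises lay in the lists of ADAM proteases with their escorts and of cell-surface serine proteases. Without replicate 4 the RPF counts were 24 higher and 2 lower of 45, in a fit that called 19.1% of all genes higher and 33.4% in either direction. By list, that fit called higher 10 of 12 genes among the ADAM proteases and partners and 7 of 8 among the serine proteases. In the list of inhibitors and processing enzymes it called 4 of 4 higher (*Bsg*, *Furin*, *Pcsk6* and *Pcsk7*). Of the other matrix metalloproteinases 2 of 7 were called higher, and of the plasminogen partners 1 of 8. It called 2 of 6 ADAMTS proteases lower.

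Among the 12 tested ADAM proteases and ADAM trafficking partners, 5 rose in RPFs and 3 in total RNA, beside 6.6% and 4.35% of all genes. Of their RPF log2 fold changes 11 of 12 were above 0, beside 48.9% of all genes. The list was chosen with earlier results of these data known. *Tspan15*, a tetraspanin that escorts ADAM10 to the cell surface, had RPF levels of 49.7, 47.4, 91.6 and 258 CPM in KM_NTC and 147, 110, 204 and 361 CPM in KM_4A2cr. Each KM_4A2cr library was above its partner, and the fitted rise was 1.10 ± 0.18 on the log2 scale in RPFs (standard error, adjusted p = 0.0140) and 0.96 in total RNA (adjusted p = 0.0105). *Tspan5*, a relative that also carries ADAM10, rose by 0.59 in RPFs (adjusted p = 0.0550) and stood at 0.24 in total RNA (adjusted p = 0.441). *Adam19*, a membrane sheddase, had 39.2, 16.9, 27.0 and 78.0 CPM in KM_NTC and 119, 60.9, 118 and 86.4 CPM in KM_4A2cr, a log2 fold change of 1.44 (adjusted p = 0.0281) and of 1.32 in total RNA (adjusted p = 0.0169). *Adam8* rose by 0.54 in RPFs (adjusted p = 0.0604) and 0.64 in total RNA (adjusted p = 0.0641). *Rhbdf1*, which escorts ADAM17 and is named after its value was seen, rose by 0.50 in RPFs (adjusted p = 0.0713).

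The 4 tested genes in the list of inhibitors and processing enzymes were *Bsg*, *Furin*, *Pcsk6* and *Pcsk7*, and only *Furin* passed the threshold. This Golgi protease removes the propeptides of MMP14 and of several ADAM proteases. Its RPF levels were 135, 28.4, 81.8 and 76.8 CPM in KM_NTC and 404, 88.2, 275 and 98.3 CPM in KM_4A2cr. Every KM_4A2cr library exceeded its partner, by the least in replicate 4, and the fitted rise was 1.35 ± 0.22 on the log2 scale in RPFs (standard error, adjusted p = 0.0158) and 1.03 in total RNA (adjusted p = 0.0111).

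Of the 8 tested cell-surface serine proteases and Kunitz inhibitors, 4 rose in RPFs, beside 6.6% of all genes. All 8 had an RPF log2 fold change above 0, beside 48.9% of all genes. This list too was chosen with earlier results known. *Hpn* (hepsin) was scarce, with 59 RPF counts in KM_NTC and 136 in KM_4A2cr, and rose by 1.47 in RPFs (adjusted p = 0.0153). It was not tested in total RNA or translational efficiency. *Htra1*, a secreted serine protease, had 936, 916, 1567 and 2991 RPF CPM in KM_NTC and 1566, 1681, 2610 and 3185 CPM in KM_4A2cr, and rose by 0.61 in RPFs (adjusted p = 0.0633) and 0.80 in total RNA (adjusted p = 0.0342). The membrane protease *Prss8* rose by 0.81 in RPFs (adjusted p = 0.0679) and the inhibitor *Spint2* by 0.55 in total RNA (adjusted p = 0.0713). *St14* (matriptase), named after its value was seen, rose by 0.43 in RPFs (adjusted p = 0.0942).

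Of the 8 tested partners of the plasminogen system 0 passed in RPFs and 0 in total RNA, with an RPF median of 0.12. Of the 7 tested other matrix metalloproteinases 0 passed, with an RPF median of -0.38. Of all genes, 10.3% in RPFs and 6.13% in total RNA passed in either direction, and counts of 0 in lists of this size are near these shares. The lists were not compared with each other. Without replicate 4, *Mmp11* (0.66, adjusted p = 0.00356), *Mmp28* (1.71, adjusted p = 0.0175) and the receptor *Lrp1* (0.86, adjusted p = 0.00320), named after their values were seen, rose in RPFs. *Mmp28* was scarce, with 34 RPF counts over the KM_NTC libraries and 72 over the KM_4A2cr libraries. *Mmp2*, which encodes gelatinase A, had 0 RPF counts in both cell lines. *Plg*, which encodes plasminogen, had 0 in KM_NTC and 2 in KM_4A2cr. With all pairs, 2 of the 7 other matrix metalloproteinases had an RPF log2 fold change above 0. *Adamts5*, which cuts aggrecan, was the only one of the 4 tested ADAMTS proteases past the threshold, with 117 RPF counts in KM_NTC and 40 in KM_4A2cr. It fell by 1.29 in RPFs (adjusted p = 0.0357) and by 0.95 in total RNA (adjusted p = 0.0113), and was lower in KM_4A2cr in 4 of 4 pairs.

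**Figure D5:**
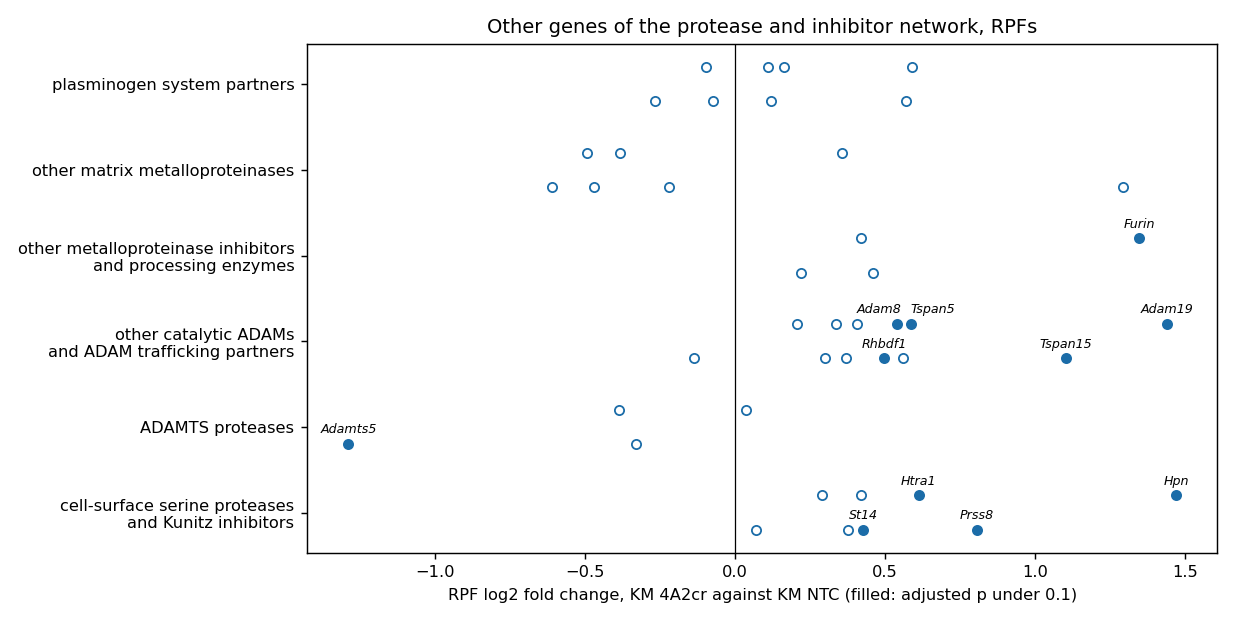
RPF log2 fold change between KM_4A2cr and KM_NTC of each tested gene in the 6 lists, a point per gene, filled and named where the adjusted p was under 0.1. The named points lie right of 0 in the ADAM, processing enzyme and serine protease lists, between 0.43 and 1.47, and *Adamts5* lies at -1.29.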

How the data were processed

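Each of the 4 KM_NTC and 4 KM_4A2cr replicates gave an RPF and a total RNA library. RPF tables as deposited hold raw counts of each transcript. Reads had been trimmed with cutadapt 1.18, freed of rRNA and tRNA reads, aligned with BBmap to GENCODE vM27 transcripts, one per gene,, deduplicated with UMI-tools 1.0.1 and added up along the coding sequence, leaving out its ends. For total RNA the authors deposited RSEM 1.3.3 expected counts and TPM per isoform, after alignment with Bowtie2 2.3.5.1.

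Here counts were summed per gene and expected counts rounded. Levels are TMM-normalised CPM, with a prior count of 2 on the log2 scale. Genes were filtered with filterByExpr and tested in edgeR 4.0.16 (R 4.3.3, quasi-likelihood test, Benjamini-Hochberg adjustment over all genes tested, threshold 0.1). Terms were cell line and replicate number, and for translational efficiency their interaction with the kind of library over 16 libraries. TMM scaling is relative, so a change of all footprints or all mRNA leaves no trace. Counts of *Timp3* and *Mmp15* are few, so their values are imprecise. Scripts were tested on simulated counts.

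Per the labels, replicates were harvested on different days. That libraries of the same number in the 2 cell lines share a day was inferred. Same-numbered libraries deviated together across genes, with correlations of 0.763, 0.782, 0.575 and 0.687 in RPFs and 0.756, 0.736, 0.611 and 0.708 in total RNA. The 9 genes, the 6 lists and the markers were chosen with earlier results of these data known. All 9 genes and *Eif4a2* are named. From each list at most 4 genes past the threshold in RPFs or total RNA are named, smallest p first, and for each of the 8 tested genes the 2 with the highest RPF correlation. *Rhbdf1*, *St14*, *Mmp11*, *Mmp28*, *Lrp1*, *Mmp2* and *Plg* were added after their values were seen. Where a whole list is spelled out, its untested or uncalled genes are named too. The promoter motifs were chosen with results known. The alternatives were 12 other settings, DESeq2 1.42.0 among them. An allele that both cell lines share is not reported here.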

Additional observations from a re-analysis of the deposited data

Results flagged for a closer look

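In 32 groups of 4 libraries (8 genes, each cell line and kind of library), 3 held a library far from the others by Dixon's test, of which chance alone flags about 1 in 20. *Plat* RPFs in KM_4A2cr replicate 1 reached 1056 CPM, beside 392 to 469 CPM in the other KM_4A2cr libraries. *Plat* total RNA in the same replicate reached 414 CPM, beside 134 to 159 CPM. *Mmp15* total RNA in KM_4A2cr replicate 4 was 27.4 CPM, beside 6.62 to 8.67 CPM. The RPFs and total RNA of *Plat* come from the same lysate, and its log2 fold change without replicate 1 was -0.92 in RPFs (adjusted p = 0.107) and -0.95 in total RNA (adjusted p = 0.0772).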

How the results depend on the processing

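Without the replicate block, 0 genes and 0 of the 8 tested genes passed in RPFs, total RNA or translational efficiency, against 1062, 667 and 291 genes and 1, 0 and 0 of the 8 with it. Of the 8 genes, DESeq2 and library size alone each called 2 in RPFs and 1 in total RNA. No filter called as many of the 9 genes it tested. Upper-quartile factors and a threshold of 0.05 called 0 in RPFs. Beside these, DESeq2 called 958 of 10291 genes in RPFs and 589 of 10880 in total RNA, and no filter 1227 of 14073 in RPFs. Over all genes, library size alone called 1619 in RPFs (482 higher, 1137 lower), 1130 in total RNA and 132 in translational efficiency, and moved the median log2 fold change to -0.145 and -0.146, and upper-quartile factors called 534 higher and 464 lower in RPFs. No filter called 1268 in total RNA and 475 in translational efficiency, DESeq2 139 in translational efficiency, and a threshold of 0.05 called 438, 321 and 76. With a replicate left out, genes called ran from 32 to 3469 in RPFs, 63 to 3260 in total RNA and 10 to 673 in translational efficiency, and called genes among the 8 from 0 to 6 in RPFs and 0 to 7 in total RNA, the high ends without replicate 4 and the low ends mostly without replicate 3. The cause was not tested. Directions of 7 of the 8 genes held in RPFs and total RNA under each setting, and *Mmp15* changed sign in both.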

Other observations

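Of the 9 genes, *Timp1* and *Mmp14* had 2 isoforms in the total RNA tables and the others 1. The isoform used for the footprints held 47.9% to 51.9% of the *Timp1* expected counts in KM_NTC libraries and 46.9% to 54.5% in KM_4A2cr libraries. For *Mmp14* it held 59.6% to 69.1% and 56.4% to 69.6%. The ranges overlapped for both genes, and with the counts of that isoform alone 0 of the 8 tested genes passed in total RNA or translational efficiency.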
